A study of Cristatella mucedo with 12 samples.

Results

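A window of contig 18 in the genome of the freshwater bryozoan Cristatella mucedo held 54 of the 35949 gene models in the count table. It was defined as all models that begin at or after base 2700000 and end at or before base 3400000. It covered 10.5% of the length of the contig and 54 of its 506 models. The window had been selected because its models stood out in statoblasts against mature colonies in these same libraries, so its levels in the 2 sets of libraries, and the counts from a fit to this contrast, are given as a description only. The files pair none of the 54 identifiers with a gene name and give no strand, and the assembly is not named in the sources used here. The models are therefore numbered 1 to 54 in order along the contig and given by their first and last base. The annotated function of each is not analysed here.

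Polyadenylated RNA was sequenced from wildtype animals of isolate SBPEP1. The 4 statoblast libraries came from defrosted statoblasts (freezer) and from days 2, 4 and 6 of differentiation, with 1 library for each. The 8 mature libraries came from dissected adult colonies, with 2 each from the edge zone, the central zone, the end part and the middle part. Edge and central zones came from 1 kind of dissection, into periphery and centre, and end and middle parts from a dissection of elongated colonies. All adult colonies were taken from a stream and kept in an aquarium at room temperature, where the statoblasts, stored frozen, also differentiated. At each later stage the whole young colony was used. Library totals were 4738221 to 7805888 counts in the statoblast set and 14787598 to 26089274 in the mature set. The smallest amount counted as detected, 3 counts, equalled 0.384 to 0.633 CPM (the count scaled to a fixed library total) in statoblast and 0.115 to 0.203 CPM in mature libraries. Statoblast and mature libraries thus differed in depth throughout, and the labels do not say which were run on which of the 2 named sequencing instruments; the part of either in the results was not tested.

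Statoblasts are dormant buds of freshwater bryozoans, enclosed in a hard capsule and packed with yolk reserves. They survive cold and drying, and on germination the stored cells and yolk build a first polypide, the feeding unit of a colony. A young colony then grows by budding further polypides. Statoblasts form inside adult colonies, on the funiculus, a cord of tissue that links the gut to the body wall.

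The window was not a uniform block. In 23 models each statoblast library lay above every mature library, in 5 each mature library lay above every statoblast library, and in 7 the 2 sets overlapped. The remaining 19 models stayed under 3 counts in all 12 libraries. Of these, 6 had no count in any library, which is 11.1% of the window, against 17.1% of all models in the table. The silent models lay mainly at the near border, where models 1 to 8 were all under 3 counts, and between models 40 and 45. Among the 28 models with at least 10 counts in every library of at least 1 set, 19 had all statoblast libraries above all mature ones, against a background of 32.6% of 15679 models that met the same minimum. In 5 of the 28 all mature libraries lay above all statoblast ones, against a background of 33.5%. On the rest of contig 18 the same counts were 66 (35.9%) and 58 (31.5%) of 184 models. The window was chosen on this contrast, so these shares support nothing.

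**Figure D1:**
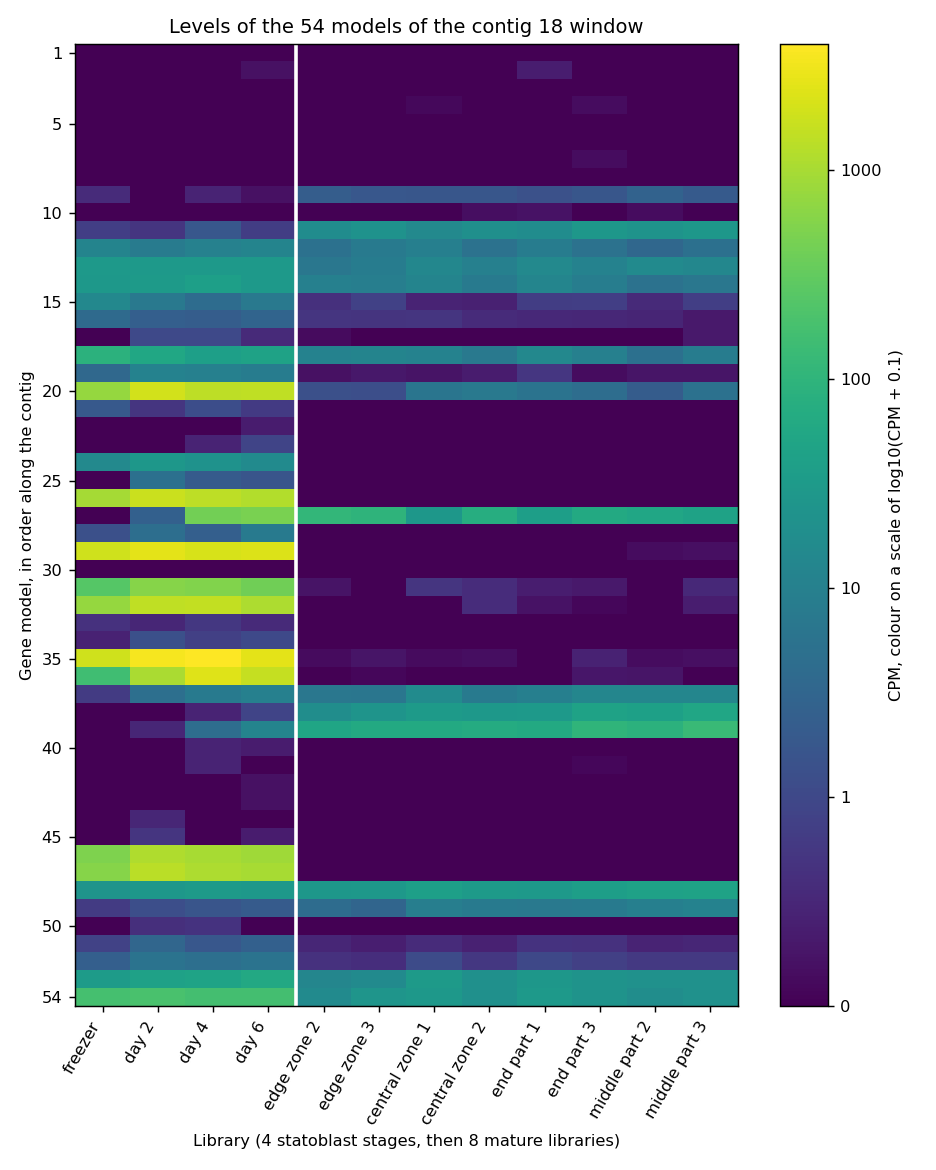
Level of each of the 54 models (rows, in order along the contig) in 4 statoblast and 8 mature libraries (columns), as CPM on a colour scale of log10(CPM + 0.1). Models 20, 26, 29, 31, 32, 35, 36, 46 and 47 are bright in all 4 statoblast columns and, apart from model 20 at 1.18 to 7.17 CPM, dark in the mature ones, and models 1 to 8 are dark throughout.

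The window held 0.809% of all counts in freezer statoblasts, 1.56% at day 2, 1.62% at day 4 and 1.33% at day 6 (mean 1.33% ± 0.370, SD, n = 4 stages), against 0.0299% to 0.0409% in the mature libraries (mean 0.0338% ± 0.00395, SD, n = 8). The 95% Wilson intervals, which cover counting error only, were 0.801% to 0.816% in the freezer library and 1.61% to 1.63% at day 4. The lowest statoblast library was therefore far above the highest mature one. Of the counts of contig 18 alone, the window held 29.3%, 52.0%, 55.1% and 47.2% in the 4 stages in the same order, against 2.00% to 3.05% in mature libraries. Contig 18 as a whole held 2.76% to 3.01% of statoblast counts and 1.10% to 1.63% of mature counts. In bulk RNA, fewer cells that express a gene and less of its RNA in each cell cannot be told apart.

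**Figure D2:**
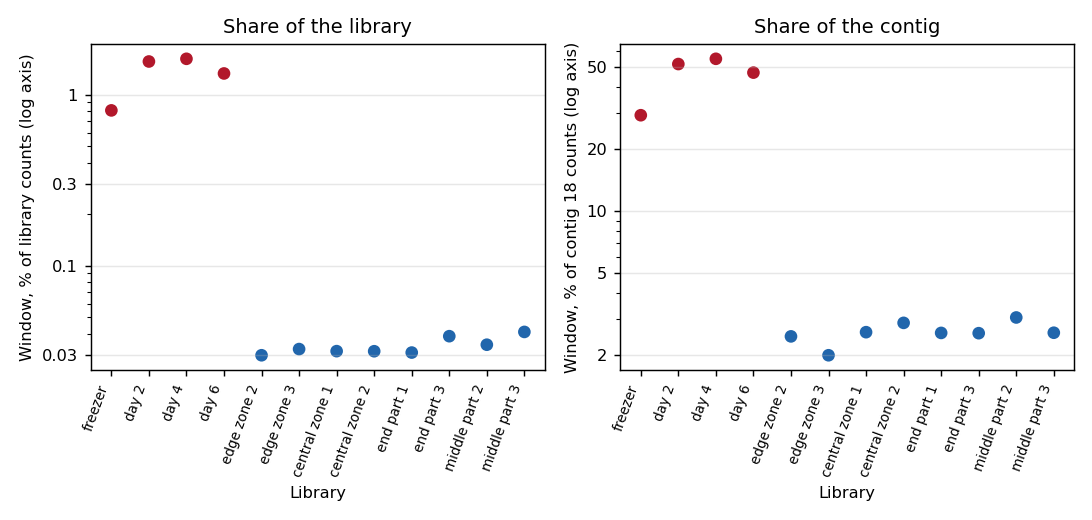
Share of counts held by the window in each library, as a percentage of all library counts (left) and of the counts of contig 18 (right), both on log axes; red points are statoblast stages and blue points mature libraries. The 4 statoblast points sit between 0.809% and 1.62% of library counts and the 8 mature points between 0.0299% and 0.0409%.

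Nearly all of the statoblast signal came from 10 models with a mean of at least 100 CPM over the stages and each statoblast library above all mature ones. They were models 20, 26, 29, 31, 32, 35, 36, 46, 47 and 54. Together they summed to 7822 CPM in freezer statoblasts, 15349 at day 2, 15512 at day 4 and 12545 at day 6, against 17.4 to 35.3 CPM in mature libraries. They made up 94.4% to 98.3% of the window's counts in statoblast libraries and 5.82% to 11.4% in mature libraries. Most were short: 6 of the 10 spanned under 2000 bases, and their median span was 1487 bases, against 3257 bases for all models. Spans include introns, which the files do not resolve.

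The model with the highest level was g32726, model 35 (bases 3063618 to 3064621). It had 1846 CPM in the freezer library, 3451 at day 2, 3930 at day 4 and 2589 at day 6, against 0 to 0.175 CPM in mature libraries (median 0.0450). Its rank among all models of a library was 84 in the freezer, 30 at day 2, 19 at day 4 and 46 at day 6. All 8 mature libraries together held 11 counts of it, and its pooled CPM ratio of statoblast over mature was 46868 (95% exact counting interval 26192 to 93891). Intervals of this kind cover counting error only, not the spread between libraries.

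The next in CPM was g32720, model 29 (bases 3012086 to 3018033). It had 1875, 2563, 2135 and 2305 CPM from the freezer to day 6, and 0 CPM in 6 of the 8 mature libraries. The other 2, both of the middle part, held 2 counts in all, so the pooled ratio of 197299 has a wide counting interval (54615 to 1629205). This was also the steadiest of the models with over 1000 CPM, since its highest stage was 1.37 times its lowest.

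Models 26, 46 and 47 had no count in any mature library. Model 26 (bases 2968330 to 2969515) had 948 CPM in the freezer library, 1699 at day 2, 1358 at day 4 and 1152 at day 6. Against a floor of 3 counts in the shallowest mature library, its mean was at least 6355-fold higher in statoblasts, and its lowest stage at least 4673-fold. Models 46 (bases 3192864 to 3200713) and 47 (bases 3200742 to 3201587) were neighbours, only 28 bases apart. Model 46 had 523, 1139, 994 and 893 CPM from the freezer to day 6, and model 47 had 582, 1304, 1104 and 986 CPM. Their means were at least 4372-fold and 4898-fold higher in statoblasts. The count of model 47 was 1.11, 1.14, 1.11 and 1.10 times that of model 46 in the 4 stages, so the pair kept nearly a fixed proportion.

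Another close pair of neighbours was formed by models 31 (bases 3030189 to 3032663) and 32 (bases 3032701 to 3033487), 37 bases apart. Model 31 had 243, 577, 530 and 393 CPM from the freezer to day 6, against at most 0.422 CPM in a mature library. Model 32 had 732, 1453, 1486 and 1086 CPM, against at most 0.291 CPM. Here the count ratio of model 32 to model 31 was 3.01, 2.52, 2.80 and 2.76, a looser proportion than in models 46 and 47. From freezer to day 2, model 31 rose 2.37-fold, nearer to model 46 (2.18-fold), not a neighbour, than to model 32 (1.99-fold). From day 4 to day 6 its ratio of 0.741 was nearer to model 32 (0.731) than to model 46 (0.899). Whether either pair is one transcript annotated as 2 models was not tested, because no strand or exon is given.

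Model 36 (bases 3082136 to 3082926) differed most between stages among these 10. It had 157 CPM in the freezer library, 1024 at day 2, 2397 at day 4 and 1553 at day 6, against at most 0.0875 CPM in a mature library. Its day 2 level was 6.53 times that of the freezer (exact counting interval 6.07 to 7.02), its day 4 level 2.34 times that of day 2 and its day 6 level 0.648 times that of day 4. Its share of the window's counts was 1.94% in the freezer library and 14.8% at day 4.

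Models 20 and 54 were the only ones of the 10 with over 3 counts in every mature library. Model 20 (bases 2943414 to 2945200) had 745 CPM in the freezer library, 1949 at day 2, 1408 at day 4 and 1418 at day 6, against 1.18 to 7.17 CPM in mature libraries (median 4.71). Its pooled ratio was 350 (counting interval 324 to 377). It overlaps model 19 (bases 2930698 to 2943777), so reads in the shared stretch may be split between them. Model 19 itself had 3.48, 10.98, 9.85 and 8.46 CPM in the 4 stages, against 0.0437 to 0.440 CPM in mature libraries.

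The last of the 10, model 54 (bases 3317208 to 3359164), was also the last model inside the window and the longest of the group at 41957 bases. It had 172, 191, 171 and 171 CPM from the freezer to day 6, against 16.1 to 29.6 CPM in mature libraries (median 22.2). Its levels varied little among stages, and its pooled ratio of 7.81 (counting interval 7.47 to 8.16) was the smallest of the 10.

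Setting model 54 and model 20 aside, the other 8 models held 55.5 counts over all 8 mature libraries together. A central zone library had the most, 13 counts, and an edge zone library the fewest, 2.50. Across the whole table, 163 models reached a mean of 1000 CPM over the stages, and 10 of them had under 50 counts in the mature set; 5 of these 10 lay in the window. The window placed 2 models among the 100 most abundant of the freezer library, 3 at day 2, 3 at day 4 and 2 at day 6, and none among the 500 most abundant of any mature library.

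Per kilobase of span, the order of mean statoblast levels was different. Model 35 led with 2942 CPM per kilobase, followed by model 36 with 1622 and model 32 with 1511. Models 47, 26 and 20 had 1175, 1087 and 772 CPM per kilobase. The long models 29, 46 and 54 stood at 373, 113 and 4.20, and model 31 at 176. A level per kilobase of a model with long introns is lower than that of its transcript.

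**Figure D3:**
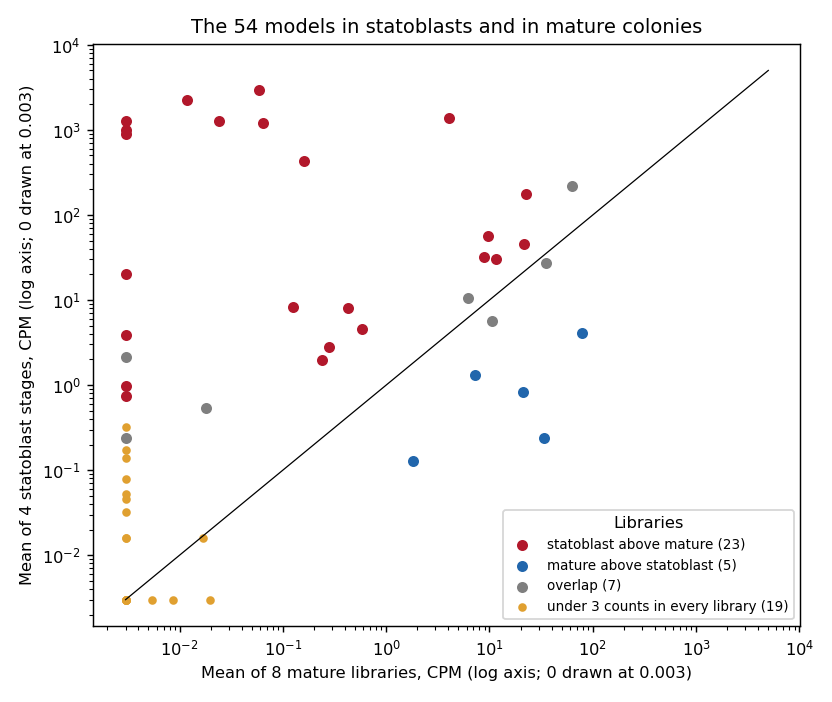
Mean CPM of each of the 54 models over the 4 statoblast stages (vertical, log axis) against its mean over the 8 mature libraries (horizontal, log axis), with values of 0 drawn at 0.003 and the line marking equal levels. The 23 models with each statoblast library above every mature one lie at the upper left or above the line, and the 5 with the opposite order lie below it.

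The 13 less abundant models with the same order of libraries had means of 0.742 to 57.0 CPM over the stages. Model 18 (bases 2907965 to 2924797) was the highest of them. It had 89.8 CPM in the freezer library, 54.8 at day 2, 39.7 at day 4 and 43.8 at day 6, against 4.91 to 13.9 CPM in mature libraries (median 10.4). Models 13, 14 and 53 were also clearly detected in mature colonies, with mean levels of 30.3, 32.1 and 45.8 CPM in statoblasts and 11.5, 8.86 and 21.6 CPM in mature libraries. Model 24 (bases 2957179 to 2959365) had 14.4, 27.2, 22.5 and 15.9 CPM from the freezer to day 6 and no mature count. Models 21, 28 and 34 also had no count in a mature library, at mean statoblast levels of 0.974, 3.91 and 0.742 CPM.

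In contrast, 5 models had the opposite order, and 3 of these (models 38, 39 and 49) lay between abundant statoblast models. The highest was g32730, model 39 (bases 3152501 to 3164234). It had 0 CPM in the freezer library, 0.211 at day 2 (1 count, below the floor), 4.24 at day 4 and 12.04 at day 6. The mature libraries were at 49.9 to 131.6 CPM (median 64.9). Its neighbour g32729, model 38 (bases 3121785 to 3132441), had 0, 0, 0.184 and 0.769 CPM over the stages, against 18.2 to 52.6 CPM (median 30.9). Its day 4 value rested on 1 count, below the floor. Models 36 and 46, which flank this pair among the abundant models, were at 157 to 2397 CPM and 523 to 1139 CPM in the same statoblast libraries.

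The other 3 were models 9, 11 and 49. Model 11 (bases 2769345 to 2774881) had 0.624, 0.422, 1.66 and 0.576 CPM over the stages, against 14.3 to 27.6 CPM in mature libraries. The day 2 value rested on 2 counts, below the floor. Model 49 (bases 3264625 to 3277577) had 0.535, 1.16, 1.57 and 1.99 CPM, against 3.02 to 10.7 CPM. Model 9 (bases 2763129 to 2766063) stayed below the floor in every statoblast library, at most at 0.268 CPM, against 1.28 to 2.72 CPM. The median span of these 5 models was 10657 bases, against 1487 bases for the 10 abundant statoblast models, and the individual spans of the 2 groups overlapped.

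Among the models whose sets overlapped, model 27 (bases 2983056 to 2991978) stood out. It had 0 CPM in the freezer library, 2.43 at day 2, 417 at day 4 and 465 at day 6, against 27.0 to 109.2 CPM in mature libraries (median 57.9). The freezer and day 2 libraries were below all mature ones and the day 4 and day 6 libraries above all of them. It lies between models 26 and 29, both of which were already abundant in the freezer library. Model 37 (bases 3089157 to 3105237) had 0.535, 4.64, 7.55 and 9.99 CPM over the stages, against 6.24 to 16.3 CPM. Model 48 (bases 3208188 to 3264646) overlapped by CPM, with 24.4 to 31.5 CPM in statoblasts and 27.6 to 45.5 CPM in mature libraries. Models 12, 17, 23 and 25 made up the rest, at mean statoblast levels of 10.5, 0.532, 0.238 and 2.13 CPM.

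In an edgeR quasi-likelihood fit of 4 statoblast against 8 mature libraries across the whole table, 21 of the 30 models of the window that could be fitted had a higher and 7 a lower level in statoblasts at an adjusted p under 0.05. Over all 17896 models fitted, 28.7% were higher and 48.2% lower. The median log2 fold change was 2.44 over the 30 models and -0.62 over all models. With library totals in place of TMM (trimmed mean of M values) scaling, the split was 22 higher and 5 lower in the window, 6853 higher and 7218 lower over all models against 5139 and 8622 with TMM, and the median over all models was -0.09. This contrast chose the window, so nothing is read from these counts.

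At the borders of the window the levels were low on one side and moderate on the other. The first model inside, model 1 (bases 2701735 to 2702163), had no count in any library. The nearest model before it (bases 2684886 to 2700064) had 0.714, 1.44, 0.737 and 1.09 CPM over the stages, against 0.146 to 0.582 CPM in mature libraries. The nearest model after model 54 (bases 3378605 to 3417372) had 112 CPM in the freezer library, 59.5 at day 2, 51.7 at day 4 and 33.3 at day 6, against 5.62 to 26.5 CPM in mature libraries. By CPM both outside models were thus above all mature libraries at every stage too, at low levels on the near side. By this measure neither border marks an end of the statoblast-high models. With TMM scaling (factors 1.30 at day 6 and 0.962 in central zone replicate 1) the day 6 level of the far model fell below that central library. The freezer level of the near model likewise fell below middle part replicate 2 (factors 1.46 and 0.879).

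The order of the stages had not been used to choose the window, and the change with time was examined over the 4 statoblast libraries. All 10 abundant models were higher at day 2 than in the freezer library, by CPM and by TMM scaling. The ratio of day 2 to freezer ran between 1.11 for model 54 and 6.53 for model 36, with a median of 2.08. By CPM, 7 of the 10 were lower at day 4 than at day 2, and 6 of the 10 by TMM. At day 6, 7 of the 10 were lower than at day 4 by either scaling. Day 2 was the highest stage for 7 of the 10 and day 4 for 3 by CPM; by TMM these were 4 and 4, with day 6 highest for 2. Each step compares 1 library with 1 other, so it has no replicate check.

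Of the 21 models with at least 10 counts in every stage, 4 were highest in the freezer library, 9 at day 2, 5 at day 4 and 3 at day 6. The models highest outside day 2 included model 18, which had 89.8 CPM in the freezer library, and model 53 (bases 3302119 to 3312191), which had 33.7, 42.0, 46.7 and 60.7 CPM from the freezer to day 6. Models 13 and 54 were nearly level, with 28.9 to 31.0 CPM and 171 to 191 CPM over the stages.

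**Figure D4:**
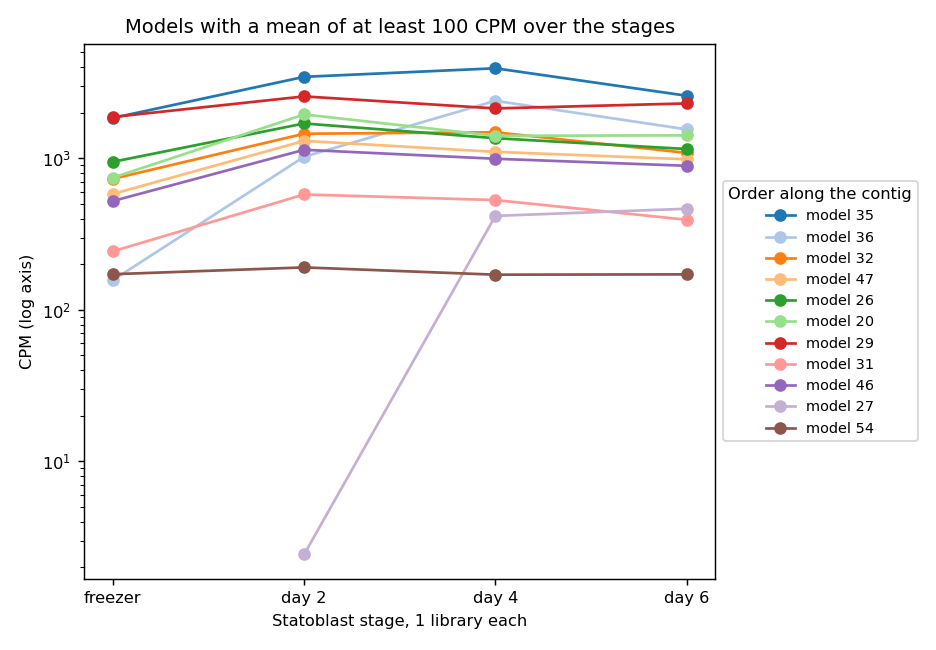
CPM (log axis) of the 11 models with a mean of at least 100 CPM over the stages, in the 1 library of each statoblast stage; a value of 0 is not drawn. Model 36 is at 157 CPM in the freezer library and 2397 CPM at day 4, model 27 first has a drawn value of 2.43 CPM at day 2 and reaches 417 CPM at day 4, and model 54 stays between 171 and 191 CPM.

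A slope per day was fitted with edgeR's quasi-likelihood test over the 4 stages, with the freezer library as day 0. Each stage had 1 library, so the spread in this fit is the departure of the stages from a straight line. A rise followed by a fall adds to that spread, so a model that does not pass may still differ between stages. None of the 21 models of the window that could be fitted passed an adjusted p of 0.05, either with edgeR or, for 19 models, with DESeq2. The edgeR background over all 9887 models fitted was 5.94% with a rising and 4.17% with a falling slope. With DESeq2, 1115 of 9311 models passed over the whole table. At an unadjusted p under 0.05 there were 3 with each tool, but no such count over all models is given here, so nothing is read from it. The slope of model 36 was 0.56 log2 units per day (SE 0.17, edgeR adjusted p = 0.0637), that of model 18 was -0.18 (SE 0.05, edgeR adjusted p = 0.0582) and that of model 53 was 0.13 (SE 0.05, edgeR adjusted p = 0.102). Without the day 6 library, 2 models passed: model 36 at 0.98 per day (edgeR adjusted p = 7.77e-06) and model 18 at -0.30 (edgeR adjusted p = 0.0461). That fit called 525 of 9972 models over the whole table. Without the freezer library the slopes were 0.15 for model 36 (edgeR adjusted p = 0.570) and -0.08 for model 18 (edgeR adjusted p = 0.604), the highest adjusted p of each over the 8 other settings. Over the whole table only 4 of 10351 models passed in that fit. Model 27 was left out by the filter on low counts, because it had none in the freezer library. With no such filter, model 27 passed with a slope of 2.05 per day (edgeR adjusted p = 0.0190) and model 39 with 1.26 (edgeR adjusted p = 0.00561). These were 2 of 42 models of the window, against 1291 of 21059 over all models.

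Zones of mature colonies had not been used to choose the window either. Between edge and central zone, 17 of the 54 models could be fitted, most of the abundant statoblast models having too few mature counts. By edgeR's test with TMM scaling, 1 model was higher in the edge zone, against a background of 12.8% of 18085 models, and 1 was lower, against 10.9%. At an unadjusted p under 0.05 there were 5, but no such count over all models is given here, so nothing is read from it. The median log2 fold change was 0.15 over the 17 models and -0.01 over all models. With library totals alone the median over all models was -0.42, and the window then had 0 higher and 3 lower (models 20, 49 and 53), where the whole table had 908 higher and 3882 lower, against 2311 and 1979 with TMM.

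The model that fell at the edge was model 20, one of the 10 abundant statoblast models. It had 1.23 and 1.18 CPM in the edge zone, against 6.09 and 7.17 CPM in the central zone (log2 fold change -2.05, SE 0.41, edgeR adjusted p = 0.00403). In the end part it had 5.51 and 4.22 CPM, against 2.08 and 5.19 CPM in the middle part. Both edge libraries were the lowest of the 8, and the end and middle values overlapped. The change was lower at the edge in all 13 other settings tried and passed in 12 of them. The exception was the fit without edge zone replicate 2 (log2 fold change -2.14), which left 1 edge library. The lowest edgeR adjusted p over the other settings was 1.93e-06. Counts behind these values were 31.5 and 29.5 in the edge libraries, against 159 and 148 in the central ones.

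The model that rose at the edge was model 27. It had 109.2 and 97.1 CPM in the edge zone, against 27.0 and 73.8 CPM in the central zone (log2 fold change 1.38, SE 0.43, edgeR adjusted p = 0.0318). In the end part it had 38.0 and 63.4 CPM, against 52.4 and 44.7 CPM in the middle part. The edge libraries were again outside the range of the other 6, here above them, and the 2 central libraries differed widely. With library totals alone it did not pass (log2 fold change 1.04, edgeR adjusted p = 0.0566). Its size rested on the central libraries, being 0.76 without central zone replicate 1 and 2.47 without central zone replicate 2. Without edge zone replicate 2 it was 1.22 and without replicate 3 it was 1.53. Of these fits, each with 1 library left in a group, only that without central zone replicate 2 passed. Model 27 passed in 9 of the 13 other settings, the lowest edgeR adjusted p being 3.41e-05. With all 12 libraries scaled together, the 2 edge libraries had the lowest TMM factors, 0.635 and 0.694. The zone fit scaled the 8 mature libraries alone, with factors not given here. The part of TMM scaling in the higher edge level was not tested beyond the fit with library totals.

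**Figure D5:**
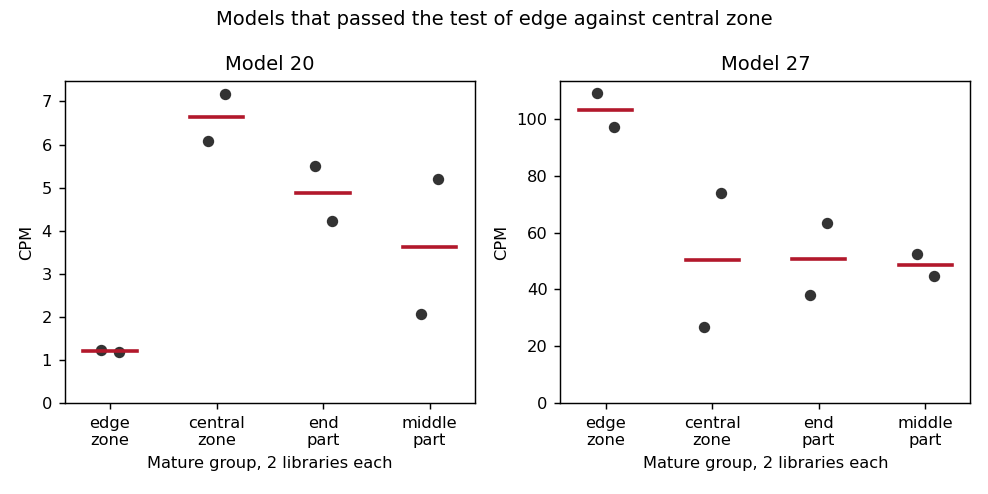
CPM of models 20 and 27 in the 8 mature libraries by group; points are libraries and red lines are means of 2. Model 20 is at 1.23 and 1.18 CPM in the edge zone, below the other 6 libraries, and model 27 is at 109.2 and 97.1 CPM there, above them.

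Between end and middle part none of the 17 models passed by edgeR's test, against a background of 0.326% higher and 0.0166% lower over all 18085 models. DESeq2 also gave 0 of the 14 models for which it returned an adjusted p, against 301 of 13176 over the whole table. At an unadjusted p under 0.05 there were 2 with either tool. No such count over all models is given here, so nothing is read from it. These 2 were models 14 and 18 with edgeR. Model 14 (bases 2856485 to 2883083) had 12.1 and 8.66 CPM in the end part, against 5.28 and 6.43 CPM in the middle part (log2 fold change 0.78, SE 0.29, edgeR adjusted p = 0.294). Model 18 had 13.9 and 10.1 CPM in the end part, against 4.91 and 8.51 CPM in the middle part (log2 fold change 0.81, SE 0.30, edgeR adjusted p = 0.297).

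The difference between the 2 dissections, as the change of edge over central zone minus that of end over middle part, was tested in the same fit, a test added after the data were seen. Of the 17 models 0 were higher, against a background of 0.464% of 18085 models, and 1 was lower (model 20), against 1.71%. With library totals alone the window's count was the same, and the whole table had 51 higher and 1362 lower, against 84 and 310 with TMM.

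Models 38 and 39, the most abundant of those above all statoblast libraries in mature colonies, did not pass either zone test. Model 39 had 49.9 and 62.8 CPM in the edge zone, against 60.9 and 67.1 CPM in the central zone, and 62.4 and 104 CPM in the end part, against 89.4 and 131.6 CPM in the middle part. Model 38 had 18.2 and 23.5 CPM in the edge zone, against 32.6 and 28.5 CPM in the central zone, and 29.2 and 44.4 CPM in the end part, against 40.7 and 52.6 CPM in the middle part. For model 38 the edge libraries lay below the central ones and were the lowest of the 8 by CPM. With TMM scaling its log2 fold change of edge over central zone was -0.16 (SE 0.26, edgeR adjusted p = 0.680).

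Fractional values in the table show that some reads were shared between positions or models. Each of the 10 abundant models had a fractional count in at least 1 library. In statoblast libraries 36.7% to 40.5% of the window's models with a count had a fractional one, against 30.8% to 33.2% of all models, and in mature libraries 33.3% to 73.9%, against 53.7% to 58.7%. Restricted to models with whole counts in every statoblast library, the window held 0.147% of statoblast and 0.0154% of mature counts. A fractional count in any stage removes a model with all its reads, and of the 10 abundant models only model 20 was left. These shares therefore do not measure how many reads were shared. Of the 54 models, 8 (14.8%) overlap another model, against 21.6% of all models, and the levels of models that share reads with a near-identical copy elsewhere are uncertain.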

How the data were processed

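The values are expected counts for each gene model that the authors deposited without normalization, 1 column per library, beside the contig, begin and end of the model. Some are fractions, as the values themselves show. The submitters' processing notes name HISAT2 2.1.0 and featureCounts 1.5.1. Assembly, annotation, strand setting and the handling of reads with several positions: not given in the sources used here. Per the labels' protocols, poly-A RNA was selected with oligo-dT beads, a directional kit was used, sequencing was paired-end (HiSeq) or single-end (NextSeq), and each sample had 2 biological replicates. Each statoblast stage has 1 library here, and whether its replicates were pooled is not stated. Separate colonies are not stated for the replicates, and the p-values cover only the spread between these libraries.

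Models were taken by position, and all 54 were kept. CPM refer to library totals, and the floor is 3 counts. For tests, expected counts were rounded and fitted over the whole table by edgeR 4.0.16 (R 4.3.3): the filterByExpr filter, TMM scaling, then glmQLFit and glmQLFTest, with Benjamini-Hochberg adjustment and a threshold of 0.05. The fits were 2 groups over 12 libraries, a slope over 4 stages, and 4 group means over 8 mature libraries. Each SE was computed as |log2 value|/sqrt(F) and is not given by edgeR. DESeq2 1.42.0 was an alternative. Intervals of ratios are exact and those of shares Wilson intervals, with 95% confidence. Python 3.11.15, pandas 2.3.3, numpy 2.4.6, scipy 1.17.1 and matplotlib 3.10.9 were used for the rest.

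The window and the lists were chosen with earlier results of these data known. Models described with every library were the most abundant in statoblasts per kilobase with a mean of at least 100 CPM, those passing a slope or zone test, and those at the borders. Identifiers are printed for the 2 highest statoblast and the 2 highest mature models whose sets of libraries do not overlap. Other models (9, 11, 13, 14, 18, 19, 24, 37, 48, 49 and 53 among them) were chosen after their values were seen. No sequence or gene list could be used, since no genome or gene names were at hand.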

Additional observations from a re-analysis of the deposited data

Results flagged for a closer look

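Model 20 (bases 2943414 to 2945200) differed between the 2 kinds of dissection. Its log2 fold change of edge over central zone minus that of end over middle part was -2.46 (SE 0.56, edgeR adjusted p = 0.0409), from 1.23 and 1.18 CPM in the edge zone against 6.09 and 7.17 CPM in the central zone, and 5.51 and 4.22 CPM in the end part against 2.08 and 5.19 CPM in the middle part. It was the 1 model called of 17 of the window fitted, against 0.464% higher and 1.71% lower over all 18085 models. Of the 17, 3 had an unadjusted p under 0.05, but no such count over all models is given here, so nothing is read from it. This test of a difference was added after the data were seen. The value was negative in all 13 other settings, between -3.16 (without middle part replicate 3) and -2.03 (without middle part replicate 2), and passed in 8, with adjusted p values between 1.31e-04 and 0.220. It did not pass without edge zone replicate 2, edge zone replicate 3, end part replicate 1 or middle part replicate 2. Each of these fits left 1 library in a group. The value also did not pass in 1 further setting given with the processing. The central libraries held 159 and 148 counts and the edge libraries 31.5 and 29.5.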

How the results depend on the processing

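Counts of window models past the threshold moved in 3 of the comparisons. For the slope per day, 0 passed, 2 passed with no filter on low counts, and leaving out each library in turn gave 0 to 2. Over all models these counts were 999, 1291 and 4 to 857. For edge against central zone, 2 passed, where the whole table had 4290. Library totals, no filter on low counts and the replicate block each gave 3, where the whole table had 4790, 5000 and 4293. With no filter model 15 (bases 2893570 to 2894160) was added (log2 fold change 1.80, edgeR adjusted p = 0.0426), and with the block model 18 (0.90, edgeR adjusted p = 0.0325). The median over the fitted window models was 0.15 with TMM, but -0.25 with library totals and -0.02 with the block. For the difference between dissections 1 passed, no filter gave 2 and the block gave 0 (model 20 at -2.58, edgeR adjusted p = 0.0541). Over all models these counts were 394, 2217 and 342. In both comparisons leaving out a replicate left 1 library in a group, so counts from those fits are left out here. Same-numbered mature libraries deviated together with correlations of -0.115 to 0.238, so the numbers were not taken to pair them. End against middle part gave 0 with the replicate block and in every other setting run. The mean share of library counts in the window was 0.955% in statoblast and 0.0401% in mature libraries with TMM-effective library sizes. It was 0.147% and 0.0154% with only models of whole counts in every statoblast library, which left only model 20 of the 10 abundant models. With only models that overlap no other, the mature share was 0.0290%. By TMM, 6 of 21 models were highest at day 6, against 3 by CPM. By TMM the sets did not overlap in 23 models higher and 7 lower in statoblasts. By CPM these were 24 (1 of them under 3 counts) and 5. No such TMM count over all models is given here, so nothing is read from this move. In the edgeR fit of statoblast against mature libraries, the whole table had 5139 higher and 8622 lower with TMM. With library totals it had 6853 and 7218. No slope of models 18, 36 and 53 changed sign in the settings run. Nor did the edge over central zone change of models 20 and 27, or the difference between dissections of model 20. Limits: stages have 1 library each, mature groups 2, and 37 of the 54 models had too few mature counts for a zone test.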
